A study of Mus musculus with 6 samples.

Results

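The 10 genes described here encode lysophospholipid acyltransferases and close relatives: Lpcat1, Lpcat2, Lpcat3, Lpcat4, Mboat1, Mboat2, Mboat7, Agpat1, Agpat2 and Lpgat1. They were taken by symbol from a table of 48368 gene symbols, and all 10 were found and were among the 17584 genes that passed the filter on low counts. Lpcat1 led to the choice of the family, because its unadjusted p was among the smallest of the genes higher in KO in these libraries. Its values are therefore a description without a test, and the question asked is whether Lpcat1 moved alone. RNA was sequenced from primary cultures of cancer-associated fibroblasts (CAFs), connective tissue cells of a tumour, grown from mammary tumours of MMTV-PyMT mice. All 6 cultures come from mice with this transgene, in which the mouse mammary tumour virus promoter drives polyoma middle T antigen. In 3 libraries the label gives the genotype Hic-5+/- (HET), and in 3 it gives Hic-5-/- (KO), where Hic-5 is a focal adhesion adaptor encoded by Tgfb1i1. The series text speaks of technical triplicates and the titles carry mostly different numbers, so how many mice the libraries stand for is not known. P-values measure the spread between these libraries, which may be technical in part and is not shown to be that between mice. Within a label the libraries differed widely in some genes, as given below for Tgfb1i1 and Col1a2.

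Membrane phospholipids are built and then remodelled. In the first pathway, AGPAT enzymes add a fatty acid to lysophosphatidic acid and give phosphatidic acid, the precursor of the other glycerophospholipids. In the second, known as the Lands cycle, a phospholipase A removes a fatty acid and an LPCAT or MBOAT enzyme puts another one in its place, which sets how saturated the membrane is. LPCAT1 is known for making saturated phosphatidylcholine, as in lung surfactant, and LPCAT3 for placing polyunsaturated fatty acids in the same lipid.

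Each library held between 24954273 and 42470598 estimated counts, so that 3 counts correspond to 0.0706 to 0.120 CPM. Levels below are CPM, a gene's count relative to its library total, with totals scaled by TMM factors. The RNA of the targeted gene followed the labels only in part. For Tgfb1i1, HET replicates 1 to 3 had 223, 348 and 125 CPM, the libraries labelled KO replicates 1 and 3 had 90.4 and 156 CPM, and KO replicate 2 had 0.232 CPM. KO replicate 1 thus held less of the transcript than any HET library but did not lack it, and KO replicate 3 lay within the HET range. Counts by gene do not show whether this transcript is whole or gives protein, and neither was tested. KO replicate 2 stood apart in several fibroblast markers as well, with Col1a2 at 0.491 CPM against 577 to 5109 CPM in the other 5 libraries, while Vim stood at 2870 CPM against 2020 to 4387 CPM and Postn at 439.8 CPM against 13.3 to 1307 CPM. Directions below compare libraries by label.

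Of the enzymes that use lysophosphatidylcholine, Lpcat1 and Lpcat3 stood on opposite sides of the comparison, so the starts of these 2 genes are shown. The sequences are RefSeq promoter windows on GRCm38.p6, from 250 bases before to 50 bases after an annotated start, and both genes lie on the + strand. Capitals mark 2 core promoter motifs on either strand, the GC box (GGGCGG) and the CCAAT box (CCAAT). Lpcat1 is at chr13:73466981-73467280 and Lpcat3 is at chr6:124662854-124663153.
Lpcat1: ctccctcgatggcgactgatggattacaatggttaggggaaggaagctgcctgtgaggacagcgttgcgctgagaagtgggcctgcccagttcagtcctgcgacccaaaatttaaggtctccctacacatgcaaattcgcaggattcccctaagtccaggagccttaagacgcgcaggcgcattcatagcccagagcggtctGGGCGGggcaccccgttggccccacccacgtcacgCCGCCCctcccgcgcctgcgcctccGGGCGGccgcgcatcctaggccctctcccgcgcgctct
Lpcat3: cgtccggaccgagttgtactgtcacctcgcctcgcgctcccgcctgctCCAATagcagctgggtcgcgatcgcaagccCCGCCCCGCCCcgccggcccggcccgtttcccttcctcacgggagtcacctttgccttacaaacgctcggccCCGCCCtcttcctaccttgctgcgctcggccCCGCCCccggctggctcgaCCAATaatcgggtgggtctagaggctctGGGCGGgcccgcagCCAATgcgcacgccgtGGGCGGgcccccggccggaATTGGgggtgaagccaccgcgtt
The Lpcat1 window held 3 GC boxes and 0 CCAAT boxes, with a GC content of 64.0%. The Lpcat3 window held 6 GC boxes, of which 2 neighbours share a base, and 4 CCAAT boxes, with a GC content of 71.0%. Over 32851 mouse promoter windows of this length, 35.7% held a GC box and 37.4% a CCAAT box. All 10 members had a window, 12 in all, and 12 held a GC box and 5 a CCAAT box. These are matches of letters, not binding sites.

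Lpcat1 (chromosome 13, 73467197 to 73516422 on GRCm38, + strand, overlapping no other annotated gene) was higher in each library labelled KO than in any labelled HET. HET replicates 1 to 3 had 19.5, 19.8 and 22.9 CPM, and KO replicates 1 to 3 had 74.9, 72.3 and 42.7 CPM. The 3 HET values were close together, while KO replicate 3 stood well below the other KO libraries and still above all HET libraries. The means were 20.7 ± 1.88 CPM and 63.3 ± 17.8 CPM (SD, n = 3 each), a fold of 3.05 (log2 fold change 1.61 ± 0.27, SE). Of all tested genes, 2.46% had a log2 fold change at least as high. Beside Tgfb1i1, the libraries with the least of that transcript, KO replicates 2 and 1, had the highest levels of Lpcat1, and those with the most, HET replicates 2 and 1, had the lowest. Between them, HET replicate 3 had 125 CPM of Tgfb1i1 with 22.9 CPM of Lpcat1, and KO replicate 3 had 156 CPM with 42.7 CPM. KO replicate 2 also stood apart in cell markers, with the fibroblast marker Col1a2 at 0.491 CPM and the epithelial marker Krt18 at 37.9 CPM. Vim, at 2870 CPM, and Krt19, at 0.542 CPM, went the other way. In this library the loss of Tgfb1i1 and the make-up of the culture cannot be told apart. The log2 fold change of Lpcat1 was 1.51 without KO replicate 2 and 1.80 without KO replicates 1 and 3, the latter with 1 KO library left.

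**Figure D1:**
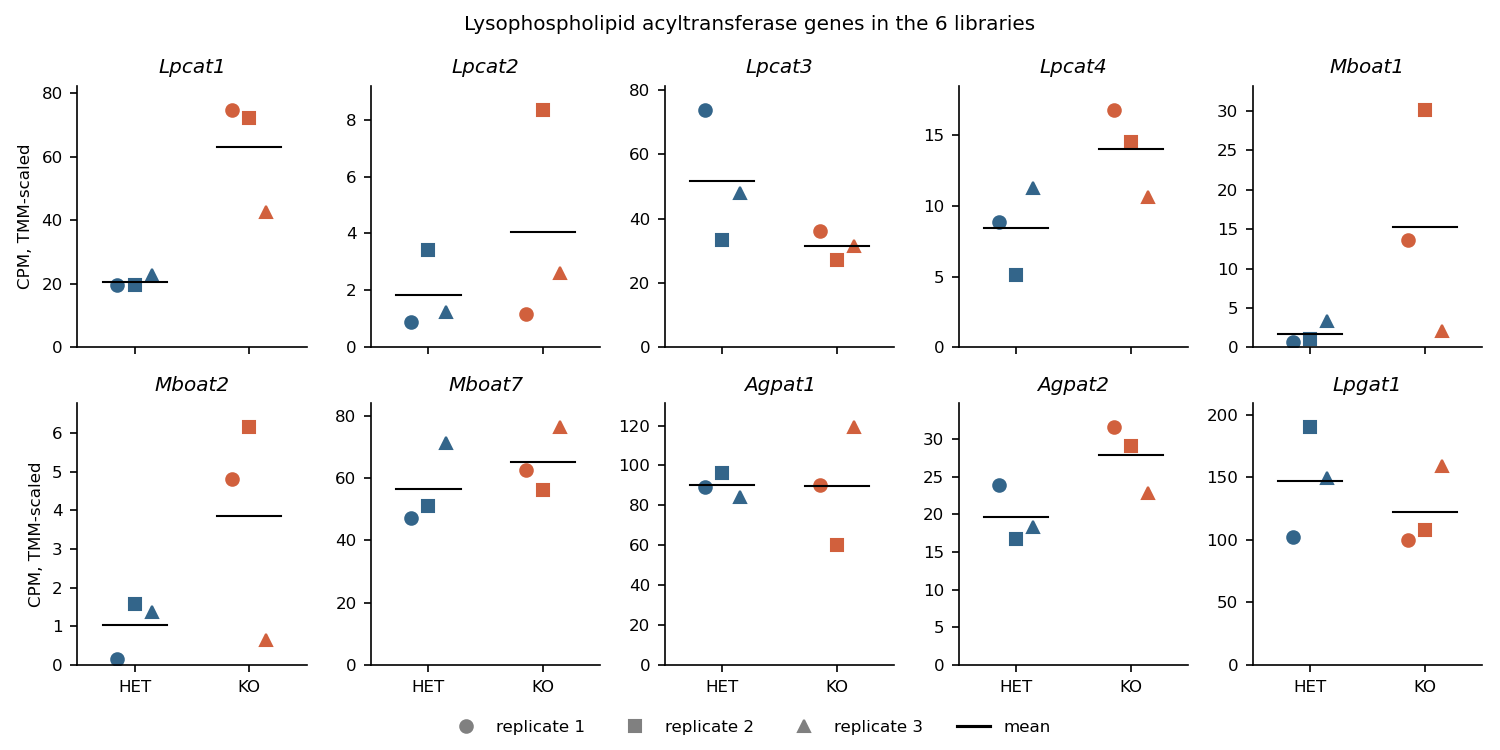
Level of each of the 10 genes in CPM (vertical axes from 0, scaled per gene) in the 3 HET (blue) and 3 KO (red) libraries, with symbols for replicate numbers and a bar at each mean. Only for Lpcat1 does every KO point, from 42.7 CPM, lie above every HET point, up to 22.9 CPM.

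**Figure D2:**
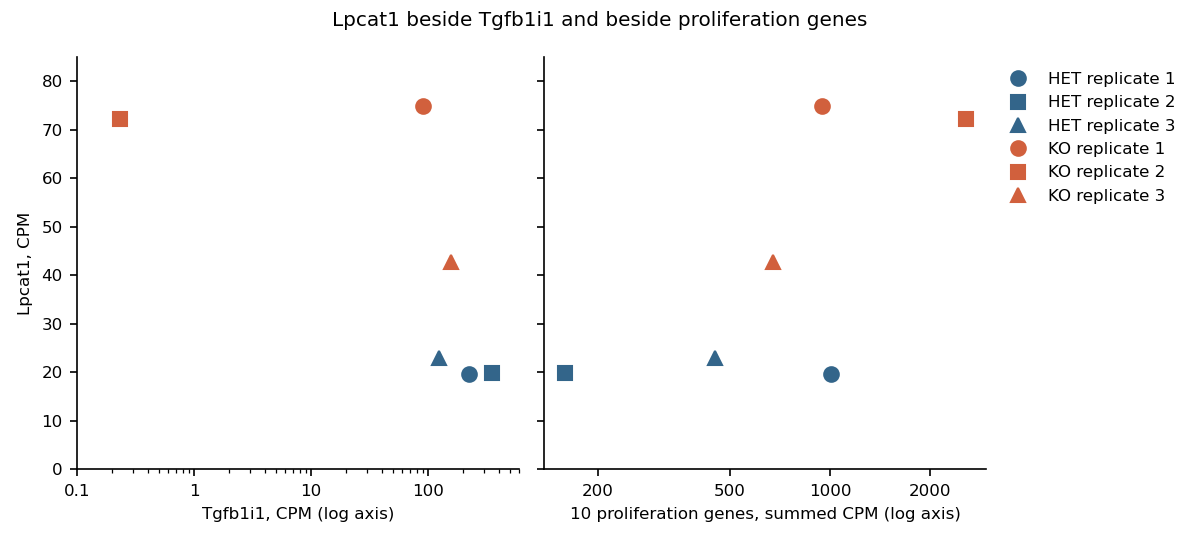
Lpcat1 in CPM against Tgfb1i1 in CPM (left, log axis) and against the summed CPM of 10 proliferation genes (right, log axis), 1 point per library. HET replicate 1 has a proliferation sum of 1008 CPM with 19.5 CPM of Lpcat1, while KO replicate 1 has a sum of 946 CPM with 74.9 CPM of Lpcat1. The lowest sum, 159 CPM in HET replicate 2, goes with 19.8 CPM of Lpcat1. The highest, 2573 CPM in KO replicate 2, goes with 72.3 CPM.

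Lpcat3 was the member with the lowest log2 fold change. HET replicates 1 to 3 had 73.9, 33.5 and 48.0 CPM, and KO replicates 1 to 3 had 36.0, 27.3 and 31.4 CPM. The groups overlapped, because KO replicate 1 lay above HET replicate 2. Its log2 fold change of -0.71 ± 0.32 (SE) did not pass the edgeR quasi-likelihood test (adjusted p = 0.589, Benjamini-Hochberg over all tested genes, threshold 0.05). HET replicate 1 set much of its size, and without it the log2 fold change was -0.36.

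Lpcat4, which acylates lysophosphatidylcholine and lysophosphatidylethanolamine, stood at 8.89, 5.15 and 11.3 CPM in HET and at 16.8, 14.5 and 10.7 CPM in KO. KO replicate 3 lay within the HET range. Its log2 fold change was 0.73 ± 0.37 (SE; edgeR adjusted p = 0.593), and it was 0.47 without HET replicate 2. Lpcat2, an enzyme of myeloid cells that can also make platelet-activating factor, was low throughout. It stood at 0.886, 3.41 and 1.26 CPM in HET and at 1.16, 8.34 and 2.62 CPM in KO. Its log2 fold change was 1.12 ± 0.87 (SE; edgeR adjusted p = 0.686) and rested on KO replicate 2, without which it was 0.0042. The protein-coding gene Capns2 lies wholly within the span of Lpcat2 on the same strand, so reads of the pair may be mixed. Leukocyte markers were high in HET replicate 2 and KO replicate 3, where Ptprc stood at 8.19 and 5.67 CPM and Lyz2 at 1257 and 1037 CPM. In KO replicate 2, where Lpcat2 was highest, Ptprc and Adgre1 were at 0 CPM. Adgre1 was also at 0 CPM in HET replicates 1 and 3 and KO replicate 1. Ptprc was also at 0 CPM in HET replicate 1, at 0.0392 CPM in HET replicate 3 and at 0.0455 CPM in KO replicate 1. Itgam stood at 0.852 CPM and Cd14 at 9.50 CPM in KO replicate 2, above the 0.0354 and 6.62 CPM of HET replicate 1. Summed over 9 leukocyte markers, the HET libraries had 31.3 to 1390 CPM and the KO libraries 17.1 to 1125 CPM, with 2 of 5 tested markers higher in KO, and their part in the level of Lpcat2 was not tested.

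The make-up of the 4 Lpcat genes differed between the labels. Levels of different genes were set on 1 scale by dividing CPM by exonic length. On this scale Lpcat1 made up 13.9%, 24.6% and 20.6% of the sum of the 4 genes in the HET libraries, and 48.3%, 49.4% and 39.5% in the KO libraries, by replicate. The groups did not overlap, and the difference of means was 26.0 percentage points. Lpcat3 made up 74.8%, 59.0% and 61.2% in HET and 32.9%, 26.5% and 41.1% in KO, again without overlap, although its own level overlapped between the labels. The sum itself overlapped between the labels, with 17.3 to 30.2 CPM per kilobase for HET and 23.4 to 33.5 for KO. Lpcat3 was thus the most abundant of the 4 transcripts in every HET library and in KO replicate 3, and Lpcat1 in KO replicates 1 and 2. Because every share has Lpcat1 in its sum, and Lpcat1 was chosen on this contrast, the lower share of Lpcat3 follows in part from the higher level of Lpcat1, and all of these shares are descriptions. By the deposited RPKM, which divide by the genomic span of each gene, the difference of means was 16.4 percentage points, and Lpcat4 held the largest share in each KO library, at 45.6% to 47.7%, and in HET replicate 3, at 47.2% against 37.2% for Lpcat3.

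**Figure D3:**
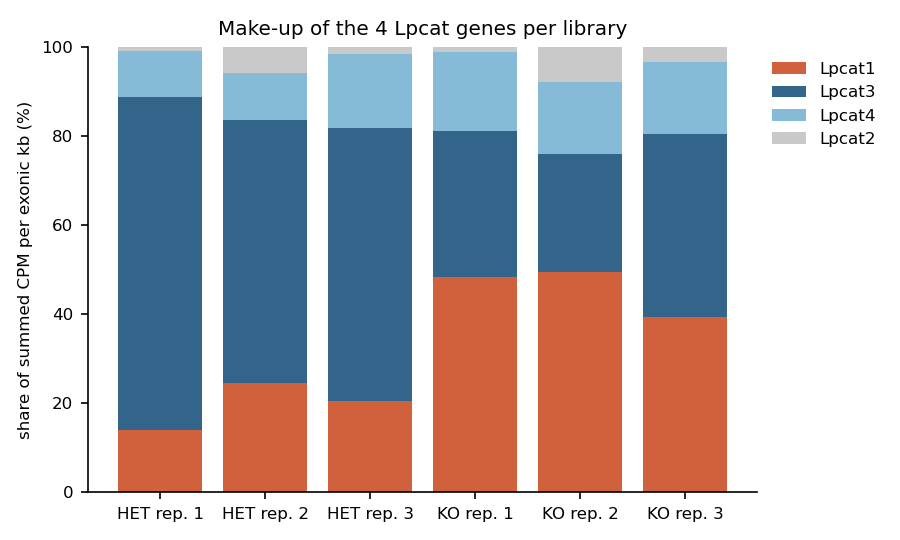
Share of each Lpcat gene, in percent of the summed CPM per exonic kilobase of the 4 genes, in each library. The red part, Lpcat1, covers 13.9% to 24.6% in the HET libraries and 39.5% to 49.4% in the KO libraries.

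Of the membrane-bound O-acyltransferases, Mboat1 and Mboat2 were low in most libraries and high in KO replicates 1 and 2. Mboat1, which acylates lysophosphatidylethanolamine and lysophosphatidylserine, stood at 0.744, 1.05 and 3.37 CPM in HET and at 13.7, 30.1 and 2.02 CPM in KO. KO replicate 3 lay within the HET range, so the groups overlapped although the fold, 8.87, was larger than that of Lpcat1. The log2 fold change of 3.15 ± 1.07 (SE) did not pass the threshold (edgeR adjusted p = 0.579), and it ran from 2.20 without KO replicate 2 to 4.08 without HET replicate 3. Mboat2, which acts on lysophosphatidylcholine and lysophosphatidylethanolamine, stood at 0.142, 1.56 and 1.37 CPM in HET and at 4.80, 6.15 and 0.634 CPM in KO. It had a log2 fold change of 1.91 ± 1.08 (SE; edgeR adjusted p = 0.612), with the same 2 KO libraries high. Epithelial markers differed between these 2 libraries. In KO replicate 2 Krt18 stood at 37.9 CPM and Cdh1 at 14.6 CPM, while in KO replicate 1 each stood at 0.228 CPM. Krt19 went the other way, with 27.2 CPM in KO replicate 1 against 0.542 CPM in the other. Over 9 epithelial markers the HET sums were 65.7, 17.0 and 18.4 CPM, of which Krt19 alone held 64.1, 13.0 and 16.2 CPM. The KO sums were 28.3, 83.1 and 26.9 CPM, with Krt19 at 27.2, 0.542 and 17.8 CPM. In KO 5 of 6 tested markers were higher. None was at 0 in all libraries, and Krt14 was at 0 CPM in KO replicate 1. The part of the epithelial markers in the level of Mboat1 and Mboat2 was not tested. Mboat7, which places arachidonate in phosphatidylinositol, was expressed in all libraries at 47.0, 51.0 and 71.3 CPM in HET and at 62.6, 56.2 and 76.3 CPM in KO. Its log2 fold change was 0.20 ± 0.24 (SE; edgeR adjusted p = 0.785), 0.079 without KO replicate 3 and 0.41 without HET replicate 3.

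Agpat1 and Agpat2 make phosphatidic acid. Agpat1 stood at 89.3, 96.4 and 84.4 CPM in HET and at 90.4, 59.9 and 119 CPM in KO, with the lowest and the highest value both in KO libraries. Its log2 fold change was -0.0027 ± 0.28 (SE; edgeR adjusted p = 0.998), with a 95% interval from -0.67 to 0.66. Agpat2, whose loss in people causes a lipodystrophy, stood at 23.9, 16.8 and 18.3 CPM in HET and at 31.6, 29.1 and 22.8 CPM in KO. Only KO replicate 3 reached into the HET range, and the log2 fold change was 0.50 ± 0.24 (SE; edgeR adjusted p = 0.592). Agpat2 lies wholly within Gm20532 on the opposite strand, and the library kit marks strand but whether the counting used it is not stated, so reads of the pair may be mixed. Lpgat1, which acylates lysophosphatidylglycerol, stood at 102, 189.95 and 149.6 CPM in HET and at 99.7, 108 and 159 CPM in KO, with a log2 fold change of -0.27 ± 0.31 (SE; edgeR adjusted p = 0.784). Leaving out HET replicate 2 gave -0.044, and leaving out KO replicate 3 gave -0.50.

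Across the family, Lpcat1 was the only one of the 10 members whose groups did not overlap, and 15.5% of all tested genes had groups without overlap, 8.1% with KO above and 7.42% with KO below. Of the other 9 members, 6 were higher and 3 lower in KO by their fitted change, where 50.9% of all tested genes were higher, and their median log2 fold change was 0.50, beside 0.01 over all tested genes. No member passed the adjusted threshold of 0.05, as was the case for all tested genes (0%, 0 of 17584). Of the other 9, Mboat1 alone had an unadjusted p under 0.05, a level reached by 8.59% of all tested genes (1511), 4.3% higher and 4.29% lower in KO. Limma-voom called 0 genes, with 1538 (8.75%) at that unadjusted level. DESeq2 called 232 genes (1.32%, with 1955 or 11.1% at the unadjusted level), with Lpcat1 among them and no other member, which is not independent of its choice. The 95% interval of the change ended below 1.61, the fitted value of Lpcat1, for Lpcat3, Mboat7, Agpat1, Agpat2 and Lpgat1, and held it for Lpcat2, Lpcat4, Mboat1 and Mboat2. This sets the 9 intervals beside a single value that has an error of its own (SE 0.27) and that the choice of Lpcat1 used, so it is no test of a difference from Lpcat1. For Agpat2 the interval reached 1.09, within the 0.96 to 2.26 fitted for Lpcat1. The interval of Lpcat1 comes after its choice on this contrast and cannot be taken at its 95% level, so this overlap decides nothing. Only for Mboat1 did the interval, 0.57 to 5.73, leave out 0.

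**Figure D4:**
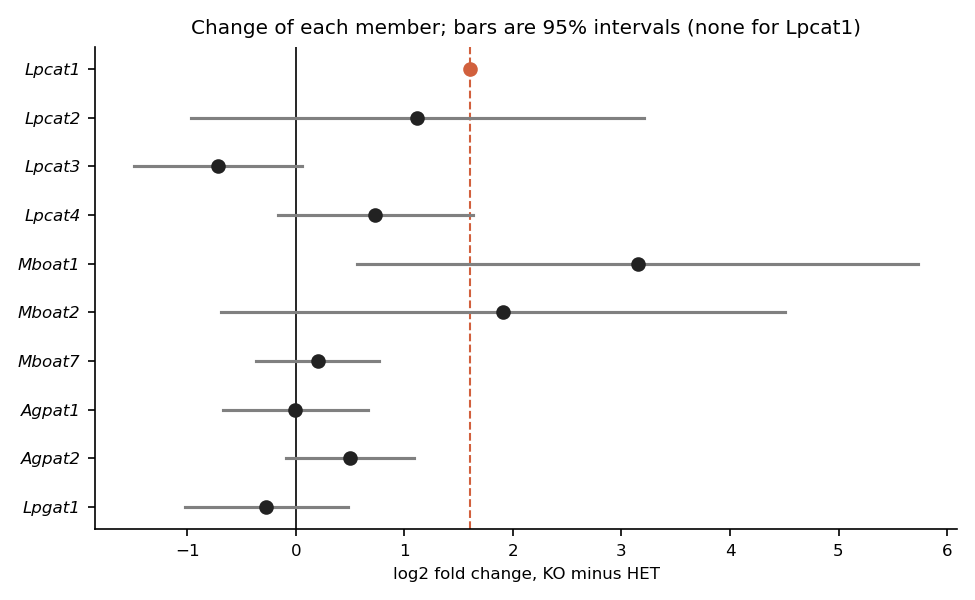
Log2 fold change of each member, KO minus HET, from the edgeR fit (points), with 95% intervals as grey bars for all but Lpcat1, which was chosen on this contrast. The dashed line at 1.61 is the change of Lpcat1, and 5 of the 9 intervals end below it.

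Per exonic kilobase, Agpat1 was the most abundant member in every library, with a mean over the 6 libraries of 29.97 CPM per kilobase (range 20.0 to 39.7). Lpgat1 (17.7, range 13.1 to 25.0), Lpcat3 (12.8, range 8.35 to 22.6), Agpat2 (11.2, range 7.88 to 14.8), Lpcat1 (9.07, range 4.21 to 16.2) and Mboat7 (7.28, range 5.64 to 9.14) followed on the same scale, and the ranges of these neighbours overlapped. Lpcat1 ranked sixth in each HET library, the second in KO replicates 1 and 2, and the fifth in KO replicate 3. Lpcat4 had 3.97 CPM per kilobase (range 1.82 to 5.96), and Mboat1, Lpcat2 and Mboat2 had 2.32, 0.869 and 0.255. The order depends on the length used. By the deposited RPKM, per genomic span, Mboat7 stood as the second and Lpcat1 as the seventh.

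The genes beside Lpcat1 on chromosome 13 were also read, taking the nearest 3 tested protein-coding genes on each side. The closest on either side had small changes. Mrpl36, a mitochondrial ribosomal protein gene 135 kilobases before it, had a log2 fold change of 0.16, and Clptm1l, 87.6 kilobases after it, had 0.21. Ndufs6, of respiratory complex I, had 0.21 and Tert, the telomerase reverse transcriptase, had 0.56. The 2 outer genes had larger values. Slc12a7, a potassium chloride cotransporter 217 kilobases after Lpcat1, stood at 1.88, 7.05 and 8.43 CPM in HET and at 30.8, 36.3 and 8.33 CPM in KO. Irx2, a homeobox gene 833 kilobases before it, stood at 20.0, 19.3 and 14.2 CPM in HET and at 44.5, 76.5 and 19.4 CPM in KO. Their log2 fold changes were 2.12 ± 0.74 and 1.39 ± 0.49 (SE; edgeR adjusted p = 0.579 for both). In both genes KO replicates 1 and 2 were high and KO replicate 3 lay within the HET range. The groups of all 6 neighbours overlapped, where 15.5% of all tested genes had groups without overlap. Lpcat1 was chosen on this contrast, so it is no measure for its neighbours.

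The named genes whose pattern over the 6 libraries was most like that of Lpcat1 were Papd7, a noncanonical poly(A) polymerase, Zfp629, a zinc finger protein, Ndufaf2, an assembly factor of complex I, Gfm1, a mitochondrial translation factor, and Tcirg1, a subunit of the vacuolar proton pump. Likeness was the correlation of log2 CPM, which ran from 0.987 to 0.996 for these 5 genes, the highest of 12664 ranked. All points share the same 6 libraries and their scaling, and 53 genes (0.419%) reached at least 0.95. Papd7 stood at 26.7, 27.6 and 28.7 CPM in HET and at 53.1, 56.7 and 42.2 CPM in KO, and its likeness to Lpcat1 in these libraries is what chose it. No family member was among these 53 genes. Mboat1 was the most alike (0.89, rank 240), followed by Agpat2 (0.85) and Lpcat4 (0.82), while Lpcat3 (-0.65), Lpgat1 (-0.50) and Agpat1 (-0.34) ran the other way.

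The other genes of phospholipid synthesis and remodelling were followed in 6 lists with 84 tested genes. No gene of these lists passed the adjusted threshold, 44 were higher and 40 lower in KO, and the median log2 fold change was 0.04. An unadjusted p under 0.05 was reached by 10 genes (11.9%, beside 8.59% of all tested genes), 4 higher and 6 lower, and 15 (17.9%, beside 15.5%) had groups without overlap. The genes named from these lists had edgeR adjusted p from 0.579 to 0.658. Among the other glycerolipid acyltransferases 5 of 11 were higher, with a median of -0.02. Gpat4, which starts glycerolipid synthesis from glycerol phosphate, stood at 107, 88.8 and 83.0 CPM in HET and at 139, 172 and 110.5 CPM in KO, without overlap. Gnpat, of ether lipid synthesis, had a log2 fold change of 0.73 ± 0.29 (SE), and Agpat5 had 0.55 ± 0.36.

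Phospholipases A, which supply lysophospholipids, and lysophospholipases, which break them down, were read as 1 list. It had 8 of 18 tested genes higher and 10 lower, with a median of -0.23. In 5 of the 18 every KO library lay below every HET library, where 7.42% of all tested genes did so. In 1 of the 18 every KO library lay above, where 8.1% of all tested genes did so. Pla2g15, a lysosomal phospholipase A2, stood at 111, 111 and 79.3 CPM in HET and at 57.6, 48.4 and 58.1 CPM in KO. The log2 fold change of Pla2g15 was -0.88 ± 0.21 (SE). Pnpla8, a calcium-independent phospholipase, stood at 48.7, 82.7 and 65.8 CPM in HET and at 24.3, 21.0 and 46.6 CPM in KO. Lypla1, an acyl-protein thioesterase with lysophospholipase activity, had a log2 fold change of -0.65 ± 0.23. The groups of all 3 genes did not overlap, but they were named for their small unadjusted p in these libraries, which favours such genes.

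Head group synthesis had 10 of 19 tested genes higher, with a median of 0.04. Chpt1, a cholinephosphotransferase that makes phosphatidylcholine, stood at 25.8, 46.6 and 39.9 CPM in HET and at 24.6, 19.0 and 25.4 CPM in KO. Ptdss1, a phosphatidylserine synthase, stood at 43.8, 49.1 and 49.1 CPM in HET and at 63.5, 57.4 and 68.8 CPM in KO. In both genes the groups did not overlap, with Chpt1 lower and Ptdss1 higher in KO. Pgs1, of phosphatidylglycerol synthesis, had a log2 fold change of 0.40 ± 0.19 (SE). Phosphatidic acid phosphatases and diacylglycerol acyltransferases had 6 of 11 higher, with a median of 0.07. Here Plpp2, a lipid phosphate phosphatase, stood at 14.1, 30.8 and 47.0 CPM in HET and at 106.8, 71.0 and 60.5 CPM in KO, without overlap. Its relatives Plpp3 and Plpp1 had log2 fold changes of -1.36 ± 0.71 and -1.34 ± 0.73 with overlapping groups.

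Acyl-CoA synthetases and fatty acid desaturation had 9 of 15 higher, with a median of 0.16. Scd1, the desaturase that makes monounsaturated fatty acids, stood at 308, 397 and 891 CPM in HET and at 225, 88.1 and 234 CPM in KO, without overlap. Fads2, a desaturase of polyunsaturated fatty acids, had a log2 fold change of -1.23 ± 0.43 (SE), and Elovl6, which lengthens saturated fatty acids, had 0.83 ± 0.35. Lysophosphatidic acid and platelet-activating factor signalling had 6 of 10 higher, with a median of 0.17 and 0 genes at an unadjusted p under 0.05. Its receptors Lpar6, Lpar2 and Lpar1 had log2 fold changes of 0.65 ± 0.36, 2.26 ± 1.27 and -0.86 ± 0.59. Lpar2 stood at 15.5 and 21.8 CPM in KO replicates 1 and 2 and at 1.19 CPM in KO replicate 3, so the same 2 libraries were high as for Mboat1.

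**Figure D5:**
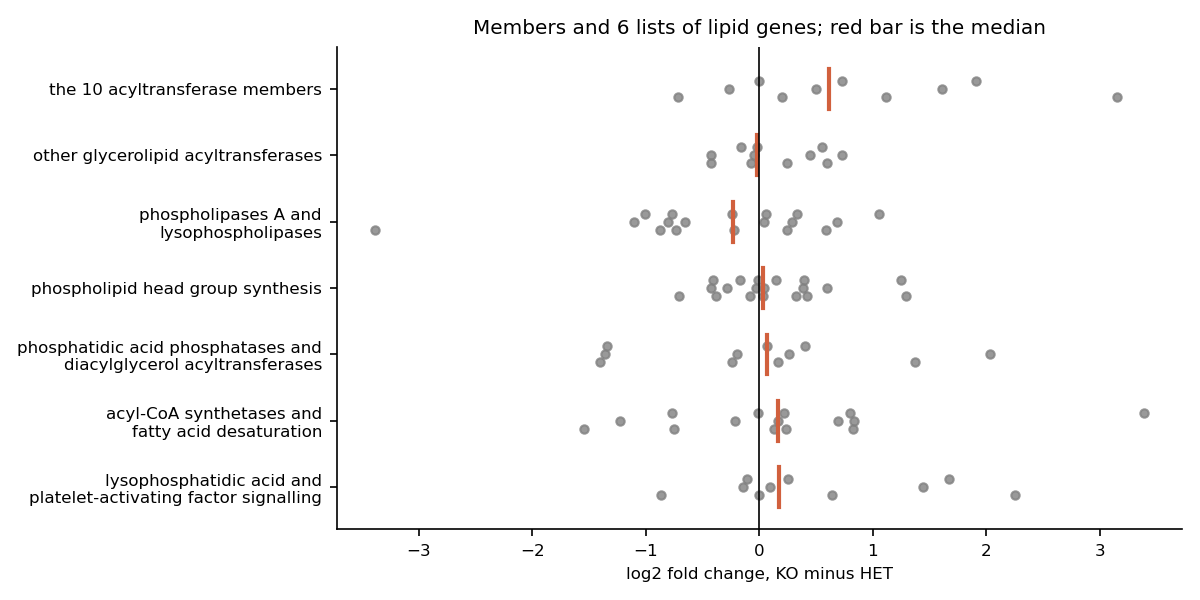
Log2 fold change, KO minus HET, of the 10 members and of the tested genes in 6 lists of lipid genes (grey points, 1 per gene), with the median of each list as a red bar. The list medians run from -0.23 for phospholipases to 0.17 for signalling genes, and that of the 10 members, chosen with Lpcat1 in view, is 0.62.

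Several marker lists varied between the libraries beside the family. All 10 proliferation genes were higher in KO by their fitted change, with sums of 1008, 159 and 452 CPM in the HET libraries and of 946, 2573 and 673 CPM in the KO libraries, by replicate. These sums overlapped between the labels, and their part in the level of Lpcat1 was not tested. Of 10 tested fibroblast markers 9 were lower in KO. The HET sums ran from 9346 to 21934 CPM and the KO sums from 3622 to 8220 CPM, so these sums did not overlap between the labels. A few abundant genes weigh most in them, as Acta2 at 5655 CPM and Col1a2 at 5109 CPM in HET replicate 1. Singly, only Col1a1 and Col1a2, 2 of the 10, had groups without overlap, beside 15.5% of all tested genes. The part of these differences in the levels of the members was not tested, and in bulk RNA fewer cells of a type and less RNA per cell cannot be told apart. Pericyte markers summed to 30.5 to 102.8 CPM over the HET libraries and 37.7 to 77.2 CPM over the KO libraries, endothelial markers to 2.76 to 5.72 and 1.34 to 13.0 CPM, and adipocyte markers to 5.77 to 21.5 and 6.97 to 13.0 CPM.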

How the data were processed

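RNA-seq of 6 libraries, 3 per genotype label, was used, made from total RNA with ribosomal RNA removed by a kit that marks strand, per the labels' protocols. For each library the authors deposited unscaled estimated counts by gene, together with RPKM values. Partek, cutadapt 1.2.1, Bowtie2 and the builds GRCm38 and mm10 are listed in the submitters' processing notes, while the annotation, strand setting and counting method are not given in the sources used here. Whether the counts include intronic reads is likewise not given, which bears on levels per exonic length. Of 48408 table rows, 30 named no gene and were left out, and rows of 7 repeated symbols were added together. The length implied by the authors' deposited RPKM was proportional to the genomic span in GENCODE M21 (GRCm38), introns included. Its ratio to the span lay within 0.1% of the library's median ratio for 85.9% of 10939 genes, and its ratio to the exonic length for 0.0823%. Levels between genes were for this reason computed from counts and exonic length, a change from the planned use of RPKM.

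Estimated counts were rounded, filtered with filterByExpr, scaled by TMM and tested with edgeR 4.0.16 (quasi-likelihood F test, two-sided, Benjamini-Hochberg over 17584 genes, threshold 0.05) in R 4.3.3. The test was checked on simulated counts with the same fixed spread for all genes and large changes only. That check does not measure its power at the spread of these libraries. Standard errors were derived from the F statistic, as log2 fold change over root F, and 95% intervals use the moderated (total) degrees of freedom of the fit. Floors cover counting error only. Alternatives were other scalings and filters, DESeq2 1.42.0, limma 3.58.1, a term for the title number shared by HET replicate 3 and KO replicate 3, and left-out libraries. The share by RPKM and the fit without KO replicates 1 and 3 were added after seeing the data. Named genes were all members, up to 3 genes of smallest unadjusted p per list, the 3 nearest tested genes on each side of Lpcat1, and the 5 genes most correlated with it. Lpar2 and Papd7 were described in full, and Lpcat1 and Lpcat3 promoters printed, after their values were seen. The members and lists were chosen with earlier results of these data known. Replicate numbers follow accession order and pair no libraries.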

Additional observations from a re-analysis of the deposited data

How the results depend on the processing

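Lpcat1 was higher in KO under all 18 alternatives, with log2 fold changes from 0.65 on log2(RPKM + 1), a scale that understates low genes, to 1.88 without HET replicate 3 and KO replicate 3, which share a title number. With single libraries left out it ran from 1.47 to 1.83. Lpcat1 was chosen on this contrast, and each KO library lay above each HET library. Leaving out libraries could thus hardly reverse its direction, and these values are a description, not support. Lpcat2, Lpcat3, Lpcat4, Mboat1, Mboat2, Agpat2 and Lpgat1 stayed on one side of 0 under all 18, some of them close to it. With single libraries left out, Lpcat2 ran from 0.0042 to 1.91, Lpcat3 from -0.95 to -0.36, Lpcat4 from 0.47 to 1.00, Mboat1 from 2.20 to 4.08, Mboat2 from 1.40 to 2.41, Mboat7 from 0.079 to 0.41, Agpat2 from 0.40 to 0.67 and Lpgat1 from -0.50 to -0.044. Agpat1, near 0 in the fit reported, was above 0 with library size alone (0.13), upper quartile factors (0.020), no filter (0.0083), log2(RPKM + 1) (0.069), log2(RPKM + 0.1) (0.072), without HET replicate 2 (0.05) and without KO replicate 2 (0.21), and with single libraries left out it ran from -0.25 to 0.21. Mboat7 was at -0.0086 without KO replicates 1 and 3. The cause was not tested. With library size alone the median over all tested genes moved to 0.15.

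DESeq2 called 232 genes and 1 member, Lpcat1, against 0 and 0 with edgeR. Without KO replicates 1 and 3 edgeR called 18 genes and no member, with the single KO library assumed to vary like the HET libraries. With the replicate block (the shared title number as a term) 0 genes were called, 1055 stood at an unadjusted p under 0.05 against 1511, and Lpcat1 had 1.57. The Lpcat1 share of the 4 Lpcat genes differed by 26.0 percentage points per exonic length and by 16.4 with the deposited RPKM. With 3 libraries per label the intervals of Lpcat2, Mboat1 and Mboat2 are wide, and Mboat2, at 0.142 CPM in HET replicate 1, lay close to the floor of 0.0991 CPM there.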
